A study of Rattus norvegicus with 4 samples.

Results

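The comparison described here is that of the left ventricle of losartan-treated double transgenic rats with the left ventricle of a Sprague Dawley control, and it asks which transcripts still differed from control under treatment. Its members are the array titled dTGR Losartan and the array titled SD Sprague dawley control, 2 of the 4 arrays of the series, chosen by those titles. The other 2 arrays, of untreated dTGR and of terminal heart failure, are given beside them as values only. Each array measured total RNA of rat left ventricle by hybridisation to oligonucleotide probe sets, with 1 intensity for each of 8799 probe sets.

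The label dTGR stands for rats that overexpress human renin and human angiotensinogen, and the losartan array came from such rats under losartan, a drug that blocks the type 1 receptor for angiotensin II. The SD control is the strain Sprague Dawley without a named transgene or treatment. All 4 samples carry 1 shared description, which speaks of hypertension, cardiac hypertrophy, proteinuria and death after 7 weeks, and the title of the terminal sample names no genotype. The promoters that drive the transgenes, the dose and duration of losartan, the ages, the sex and how many animals gave RNA to an array are not stated in the labels or files used here. There was 1 array for each group, so no difference below has an error between animals, and each is a size of change without a test.

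Renin cleaves angiotensinogen to angiotensin I, which angiotensin converting enzyme turns into angiotensin II. Angiotensin II acts on the type 1 receptor to raise blood pressure and, in the heart, to drive hypertrophy, inflammation and fibrosis. In a ventricle under load, cardiomyocytes return to a fetal gene program, of which the natriuretic peptides and skeletal alpha actin are the usual readouts.

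The losartan and SD control arrays were alike in most technical records. They shared the run day, the operator and the fluidics protocol. They differed in chip lot and in the fluidics module used, so chip lot, module and group cannot be told apart in this pair. The dTGR array alone had another fluidics protocol, and its 100 brightest probe sets held 46.3% of the signal, against 31.8% to 36.9% on the others. The terminal array alone was run on another day by another operator. Their Spearman correlation over all 8799 probe sets was 0.920, the highest of the 6 pairs of arrays, with 0.859 to 0.905 for the others. On each of them 59.2% of probe sets lay above the floor of 26.0 intensity units below which values were not ordered. The ratio of 3' to 5' signal, a sign of how intact the RNA and its copies were, was 2.17 for Gapdh on the losartan array, the highest of the 4 arrays, and 1.34 on the SD control array. For actin the ratio was 2.26 and 1.46. The part of these ratios in the differences below was not tested.

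Of 4736 genes on the array with a single symbol, 3399 lay above the floor on at least 1 of the 2 arrays, and most had near the same intensity on both. In all, 3160 genes (93.0%) stayed under 2-fold. The median log2 difference, losartan minus SD control, was 0.00, and the middle of the distribution, from its 25th to its 75th percentile, ran from -0.34 to 0.30. At least 2-fold higher with losartan were 76 genes (2.24%), and at least 2-fold lower were 163 genes (4.80%). Of these, 47 higher and 115 lower genes exceeded the floor on both sides. The remaining 29 higher and 48 lower genes had 1 side at the floor, and their folds are lower bounds. At 3-fold, 17 genes were higher and 37 lower. Probe sets of the same gene differed in this log2 difference with an SD of 0.52 (772 genes with 1758 probe sets), which measures the array and not the animals.

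**Figure D1:**
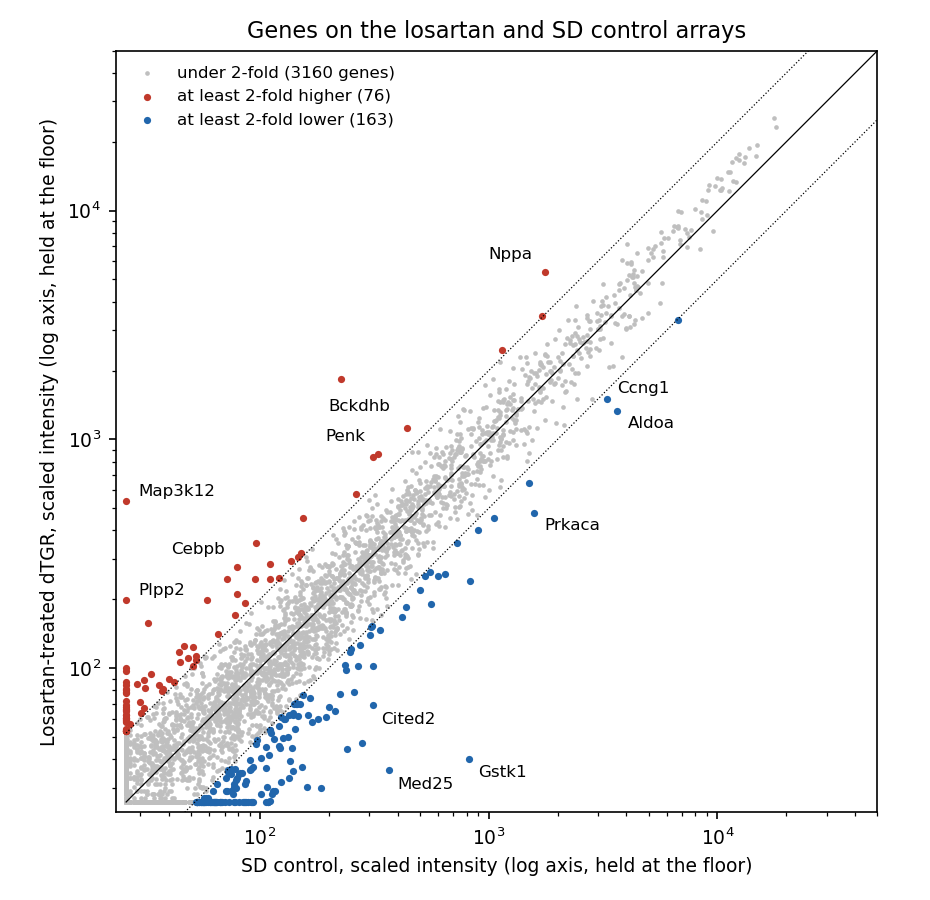
Scaled intensity of each of 3399 genes on the SD control array (x, log axis) and on the losartan array (y, log axis), with values under the floor held at 26.0, a solid line of equality and dotted lines at 2-fold. Most points (3160) lie between the dotted lines, with 76 above and 163 below, and Nppa stands above the upper line at the bright end.

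Nppa was the brightest of the 76 higher transcripts on the losartan array. It encodes atrial natriuretic peptide, a hormone that lowers blood pressure and that the loaded ventricle makes again after birth. Its intensity was 1759.8 on the SD control array, 5408 on the losartan array, 22010.5 on the dTGR array and 11721 on the terminal array. The losartan value thus lay above control and under both untreated disease arrays, and was 3.07-fold that of control (log2 difference 1.62). The gene has 3 other probe sets, which gave 1.59 to 2.13 on the log2 scale.

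Nppb, which encodes brain natriuretic peptide and is the other natriuretic hormone of the ventricle, was at its control level. It read 2051 on the SD control array, 1997 on the losartan array, 3801 on the dTGR array and 2791 on the terminal array, a log2 difference of -0.04 from control under losartan. Nppa and Nppb therefore stood apart in this pair of arrays, although they are direct neighbours in the rat genome, with 0 genes between them in the GRCr8 annotation. Since these neighbours differed here, the 250 bases before the annotated start of each are shown, from RefSeq on build GRCr8, both on the plus strand. The Nppa window is chr5:163711934-163712183 and the Nppb window is chr5:163699758-163700007. Capitals mark matches to TATAAA (the TATA box) and to GATAA (the core bound by GATA factors).
Nppa: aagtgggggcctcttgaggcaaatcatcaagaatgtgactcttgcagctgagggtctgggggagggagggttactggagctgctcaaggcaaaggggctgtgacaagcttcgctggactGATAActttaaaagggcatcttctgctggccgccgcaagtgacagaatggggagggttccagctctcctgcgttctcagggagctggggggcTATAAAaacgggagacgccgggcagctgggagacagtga
Nppb: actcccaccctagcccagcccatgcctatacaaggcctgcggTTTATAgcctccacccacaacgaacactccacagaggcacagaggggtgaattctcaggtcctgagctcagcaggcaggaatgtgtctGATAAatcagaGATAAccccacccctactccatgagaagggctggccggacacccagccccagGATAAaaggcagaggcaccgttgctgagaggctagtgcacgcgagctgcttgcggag

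These motifs were chosen after the values of both genes had been seen, and were searched on both strands. The Nppa window holds TATAAA 39 bases before the start and GATAA 131 bases before it. The Nppb window holds GATAA at 120, 109 and 57 bases before the start, and TATAAA on the opposite strand at 208 bases. Of 33469 rat promoter windows of this length, 12.9% hold TATAAA and 23.5% hold GATAA, so neither letter string is rare. TNAAGTG, the NKX2-5 core, occurs in 9.89% of windows, and the CArG box bound by serum response factor in 501 windows. Neither string is found whole in these 250 bases of either gene. The Nppa window opens with aagtg, the last letters of TNAAGTG, so a match cut by the window edge would be missed. A match is a description of the letters only.

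The gene lists below hold 7 to 45 measured genes, and their counts stand beside the shares of all genes, 2.24% higher and 4.80% lower, against which a count of called members is to be read. The rest of the hypertrophy and fetal list had small differences in both directions. Of its 15 measured members, 1 was at least 2-fold higher (Nppa) and 1 lower (Tpm2), and the median was 0.36 beside 0.00 over all genes. After quantile normalization, which gives both arrays the same distribution of intensities, the median was 0.09. Acta1, skeletal alpha actin of the fetal heart, was at 6959 on the SD control array, 9856 with losartan, 16079.8 in dTGR and 9270.0 in terminal heart failure, 1.42-fold above control with losartan. Myh7, the slow beta myosin heavy chain, was at 12389.8, 16597, 23569 and 13510.2 on the same arrays in that order, 1.34-fold above control. Another probe set of Myh7 read 3662, 6699, 15533 and 7169 in that order, with a larger log2 difference of 0.87 with losartan. Both genes were brightest in untreated dTGR, and under losartan both lay between control and dTGR, an array with its own fluidics protocol. After quantile normalization the log2 difference from control was 0.33 for Acta1 and 0.09 for Myh7, on the probe set that stands for each gene. Tpm2, the beta tropomyosin, was at 64.2 on the SD control array and at 9.05, under the floor, on the losartan array, with 164 in dTGR and 133 in terminal heart failure, at least 2.47-fold lower.

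Among the adult contractile and calcium genes, 15 of 20 measured members lay above control and 5 below. Of these 20 measured members, none was 2-fold higher and only Ryr2 was 2-fold lower, with a median of 0.25 and of 0.03 after quantile normalization. Myh6, the fast alpha myosin heavy chain, was at 10500.4 on the SD control array and 12603 with losartan, but its 2 other probe sets lay below control, at -1.93 and -0.82 on the log2 scale. Whether the probe sets of Myh6 and Myh7 tell the alpha and beta chains apart was not tested. Atp2a2, the pump that returns calcium to the sarcoplasmic reticulum, was at 14668 and 17341, with 25632 in dTGR and 12939.9 in terminal heart failure. After quantile normalization Myh6 and Atp2a2 lay slightly under control (-0.05 and -0.07). Slc8a1, the sodium-calcium exchanger, was at 101 on the SD control array, 194 with losartan, 351 in dTGR and 173 in terminal heart failure, 1.92-fold above control, while its other measured probe sets gave -0.19 and 0.18. Ryr2, the calcium release channel of the sarcoplasmic reticulum, was at 110.4 in control, 53.6 with losartan, 113 in dTGR and 70.7 in terminal heart failure, 2.06-fold lower with losartan.

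These bright genes shared a shift with brightness itself. When the 2901 genes that exceeded the floor on both sides were split into 5 equal bins from dimmest to brightest, the median log2 differences were 0.05, -0.11, -0.07, -0.01 and 0.10. Among the 58 brightest genes (2%) it was 0.33, and 0.08 after quantile normalization. The respiratory chain list, of bright genes too, had 26 of 31 members above control, a median of 0.31 and of 0.18 after quantile normalization, and only Cox5a at 2-fold. Cox5a, a subunit of cytochrome c oxidase, was at 44.2 on the SD control array, 118 with losartan, 78.3 in dTGR and 187 in terminal heart failure, 2.67-fold higher.

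Several transcripts that mark stress, inflammation or matrix in untreated disease lay nearer to control than to untreated disease under losartan. Reg3b, a secreted lectin of the regenerating gene family, was at 41.2 on the SD control array and 27.1 with losartan, against 502 in dTGR and 3846 in terminal heart failure. Spp1, osteopontin, was under the floor on both arrays compared here (4.08 and 12.1) and at 85.9 in dTGR and 384 in terminal heart failure, so it has no fold. Thbs4, thrombospondin 4 of the stressed matrix, was at 43.0 in control, 63.0 with losartan, 227 in dTGR and 212 in terminal heart failure. It was 1.46-fold above control with losartan. On the losartan array these 3 transcripts lay on the control side of the gap to untreated disease.

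Timp1, an inhibitor of matrix metalloproteinases, was at 193 in control, 286 with losartan, 594 in dTGR and 2414 in terminal heart failure, 1.48-fold above control. Lcn2, lipocalin 2 of the acute phase, was at 99.2, 147, 154 and 1465 in that order, so its losartan and dTGR values were alike. Hspa1a, an inducible heat shock protein, was at 57.9 in control, 112 with losartan, 107 in dTGR and 1828 in terminal heart failure, 1.92-fold above control. For Lcn2 and Hspa1a the losartan value was near that of untreated dTGR rather than that of control, and none of the 3 genes reached 2-fold.

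**Figure D2:**
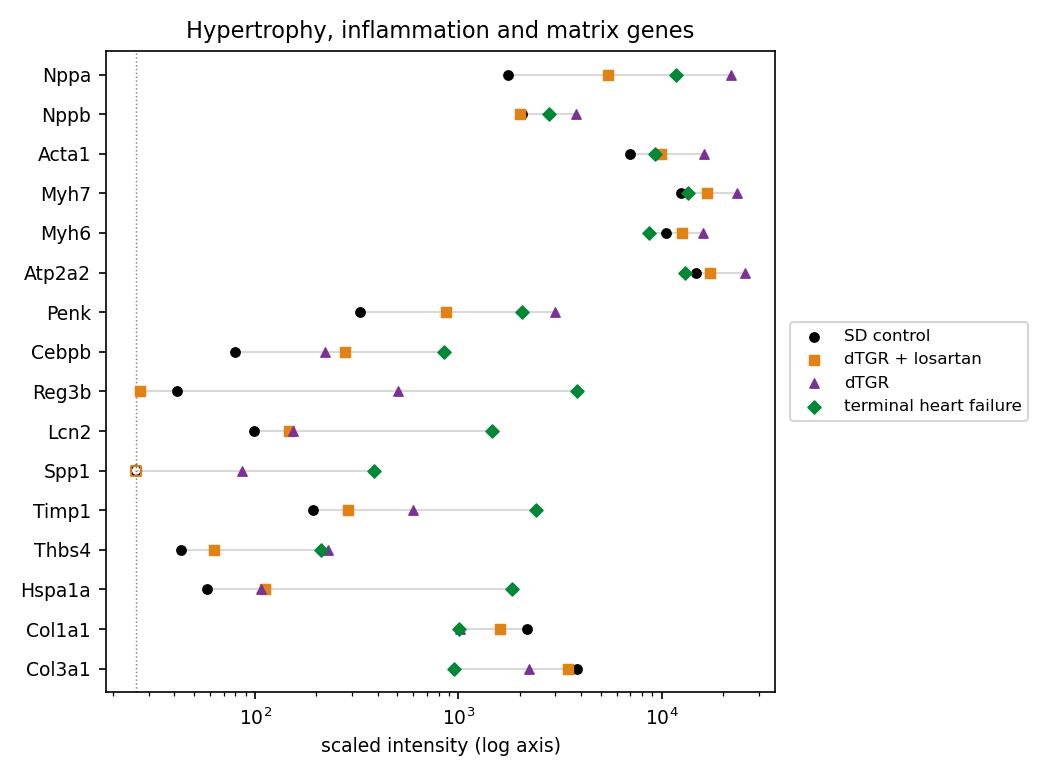
Scaled intensity (x, log axis) of 16 hypertrophy, inflammation and matrix genes on each of the 4 arrays, 1 array a group, with open symbols for values at or under the floor (dotted line). On the losartan array Nppa (5408), Penk (864) and Cebpb (278) lie clear of control, while Nppb, Reg3b, Spp1 and Col3a1 lie near it.

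Of the 15 genes that were most strongly higher by the naming rule, several lay between control and untreated dTGR, as Nppa did. Penk, the precursor of enkephalin opioid peptides, was at 327 on the SD control array, 864 with losartan, 2999 in dTGR and 2063 in terminal heart failure, 2.64-fold above control. Akip1, a protein that binds the catalytic subunit of protein kinase A, was at 79.6, 209.8, 393 and 310.4 in that order, 2.64-fold above control, and its other measured probe sets gave 0.43 and 1.16 on the log2 scale. Pitx3, a homeobox transcription factor, was at 58.7, 199, 293 and 170.3, 3.39-fold above control. In these 3 genes, control was the lowest of the 4 arrays by at least 2-fold.

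Cebpb, a transcription factor of the acute phase response, was at 79.6 on the SD control array, 278 with losartan, 221 in dTGR and 849 in terminal heart failure, 3.49-fold above control. Usp19, a deubiquitinating enzyme found in muscle, was at 96.0, 351, 276 and 267 in that order, 3.66-fold above control. On these probe sets both were as high under losartan as in untreated dTGR or higher. A dimmer probe set of Cebpb read otherwise, with 5.01 in control and 6.02 with losartan, both under the floor, against 72.7 in dTGR and 118 in terminal heart failure. Among the 35 measured members of the acute phase and inflammation list, Cebpb was the only one at least 2-fold higher and Selp, the adhesion molecule P-selectin, the only one lower (74.8 in control, 36.2 with losartan). The median of that list was -0.06.

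Other higher genes were brightest on the losartan array. Cd1d1, which presents lipid antigens, was at 71.6 on the SD control array, 245 with losartan, 101 in dTGR and 87.3 in terminal heart failure, 3.43-fold above control. Bckdhb, a subunit of the enzyme that breaks down branched-chain keto acids, was at 438, 1123, 682 and 793, 2.57-fold above control. Hs6st1, an enzyme that sulfates heparan chains, was at 94.7, 245, 57.2 and 94.0, 2.58-fold above control. The remaining members of the 15 were Foxm1, Map3k9, Dnaaf9, Cct6a and Txnl4b, from 2.61-fold to 2.93-fold above control and at 82.0 to 126 intensity units on the losartan array.

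Where control was at the floor, Map3k12 had the largest bound. This gene encodes a mitogen-activated protein kinase kinase kinase of neurons, and it was at 12.1 on the SD control array, 540.2 with losartan, 14.0 in dTGR and 95.6 in terminal heart failure, at least 20.8-fold higher with losartan. Plpp2, a lipid phosphate phosphatase, was at 16.1, 199, 15.1 and 75.2, at least 7.67-fold higher. On these probe sets both genes were under the floor in control and in dTGR, which shared a chip lot, and above it on the losartan and terminal arrays, which shared the other lot. Another probe set of Plpp2 was above the floor in dTGR only, at 53.7, and under it on the other 3 arrays. Ctrc, Pkp4 and Epb41 had bounds of at least 3.84-fold, 3.75-fold and 3.34-fold, with 0.17 on the log2 scale in another probe set of Epb41.

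**Figure D3:**
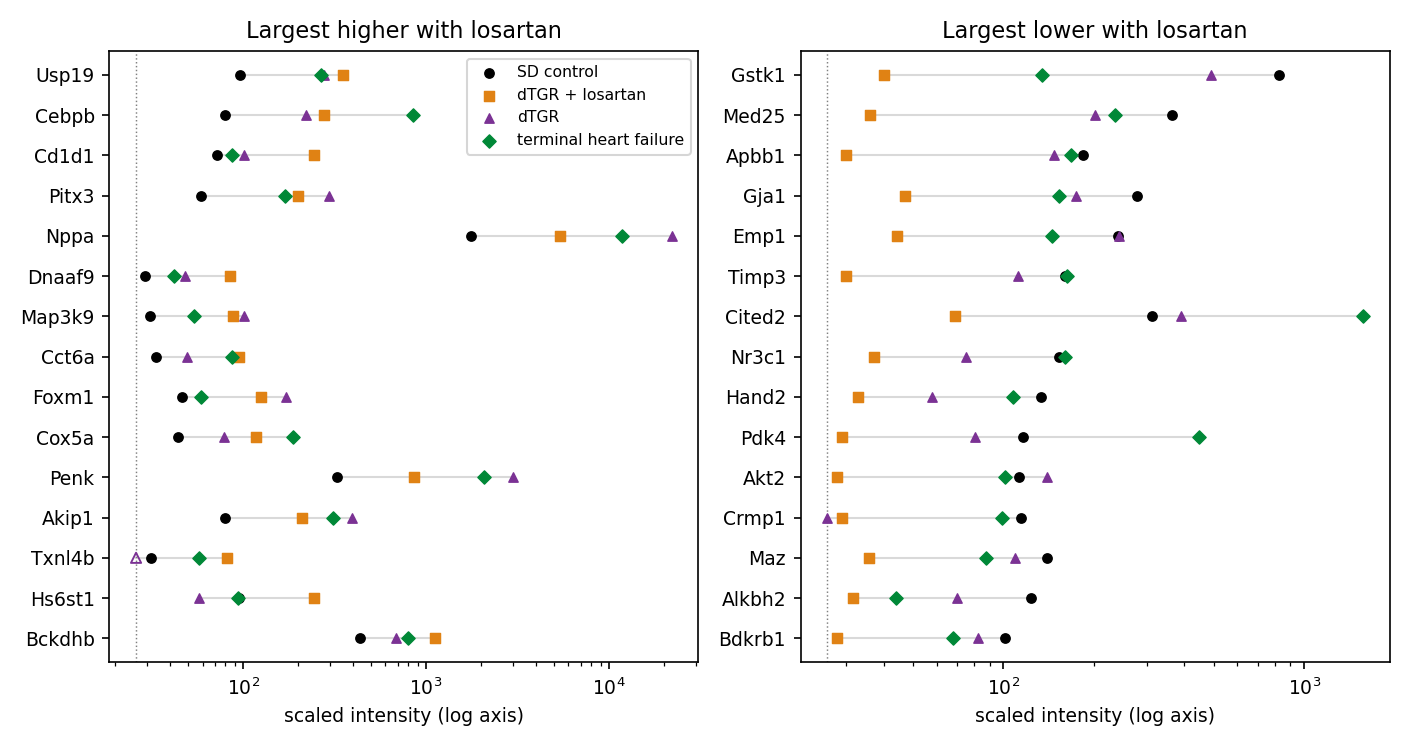
Scaled intensity (x, log axis) of the 15 most strongly higher (left) and 15 most strongly lower (right) named genes on each of the 4 arrays, 1 array a group, with the floor as a dotted line and open symbols at or under it. In the left panel control is the lowest point in most genes, and in the right panel losartan is the lowest point in most genes.

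The called genes were also placed among all 4 arrays. Of the 163 lower genes, the losartan array was the lowest of the 4 in 122 and the control array the highest in 85. Of the 76 higher genes, the losartan array was the highest in 51 and the control array the lowest in 49. Choice by the losartan and control values sets part of this order. The median intensities of the lower genes were 106 on the SD control array, 35.6 with losartan, 91.1 in dTGR and 74.4 in terminal heart failure. Those of the higher genes were 32.9, 92.1, 65.4 and 71.7.

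Gja1, which encodes connexin 43, the main gap junction protein of ventricular myocytes, was among the most strongly lower. It was at 278 on the SD control array, 47.0 with losartan, 174 in dTGR and 153 in terminal heart failure, 5.91-fold lower with losartan than in control. Gja4, connexin 37 of vessels, was at 200.5, 67.7, 280.3 and 101, 2.96-fold lower. Kcnq1, a subunit of the slow delayed rectifier potassium channel, was at 162, 62.2, 136 and 77.2, 2.60-fold lower. In all 3 genes losartan was the lowest of the 4 arrays. Kcne1, the partner subunit of Kcnq1, went the other way, from 19.0 under the floor in control to 53.4 with losartan, at least 2.05-fold higher. Over the 30 measured ion channels and connexins, these were the 1 higher and 3 lower genes, and the median was -0.11.

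Among matrix genes, Timp3, a metalloproteinase inhibitor bound to the matrix, stood out. It was at 159.8 on the SD control array, 30.1 with losartan, 112 in dTGR and 163 in terminal heart failure, 5.31-fold lower with losartan. Lox, the collagen cross-linking lysyl oxidase, was at 109.9, 41.8, 96.9 and 529.5, 2.63-fold lower, but its other measured probe sets gave only -0.34 and -0.08 on the log2 scale. Lamc1, a laminin chain of basement membranes, was at 723, 354, 690.1 and 843, 2.04-fold lower. With Vcan, a proteoglycan that was at least 2.03-fold lower, these were the 4 lower of 37 measured matrix genes, none was higher, and the median was -0.08. The fibrillar collagens did not reach 2-fold: Col1a1 was at 2164 in control and 1609 with losartan, and Col3a1 at 3814 and 3451, with another probe set of Col3a1 at -1.50. Of the 12 measured genes of the TGF-beta family, 0 passed 2-fold, and the median was -0.13. Tgfb1 itself was at 77.4 in control, 41.6 with losartan, 42.1 in dTGR and 21.0 in terminal heart failure.

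Signalling genes made up another part of the lower set. Prkaca, the catalytic subunit of protein kinase A, was at 1571 on the SD control array, 474 with losartan, 1004 in dTGR and 421 in terminal heart failure, 3.31-fold lower with losartan, and its other probe set gave -1.63. Pde3a, a phosphodiesterase that breaks down cyclic AMP, was at 87.1, 32.1, 112 and 52.0, 2.71-fold lower. Arrb2, the beta-arrestin that quenches receptors, was at 77.8, 36.3, 109 and 53.8, 2.14-fold lower. Adra2c and Grk3 rounded off the adrenergic list on the higher side, from under the floor in control to 53.1 and 53.0 with losartan. That made 2 higher and 3 lower of 36 measured members with a median of -0.18.

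In the growth factor and MAP kinase list, 2 of 45 measured members were higher (Map3k12 and Kdr) and 5 lower, beside 2.24% and 4.80% of all genes, 32 of 45 were below control, and the median was -0.13. Fgfr1, a fibroblast growth factor receptor, was at 311 on the SD control array, 102 with losartan, 289.9 in dTGR and 179 in terminal heart failure, 3.06-fold lower, with -1.32 in another probe set. Akt2, a kinase of insulin signalling, was at 113, 28.1, 139.9 and 101, 4.01-fold lower. Its other probe set gave -0.44, from 35.2 in control to 3.09, under the floor, with losartan. Igf1r and Igfbp5, the receptor and a binding protein of insulin-like growth factors, were at 57.0 and 55.4 in control and at 27.1 and 7.08 with losartan. The 2 vascular endothelial growth factor receptors differed in opposite directions. Kdr was at 111 in control, 246 with losartan, 191 in dTGR and 54.6 in terminal heart failure, 2.22-fold higher, and Flt1 was at 81.0, 34.5, 133 and 133, 2.34-fold lower.

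Cited2, a regulator of CBP/p300 coactivators, was at 312 on the SD control array, 69.0 with losartan, 388 in dTGR and 1568 in terminal heart failure, 4.52-fold lower, and its 2 other probe sets gave -1.28 and -0.78. Hand2, a transcription factor of heart development, was at 134, 32.9, 58.1 and 108, 4.05-fold lower. Junb, an AP-1 factor, was at 90.2, 35.7, 145 and 231, 2.52-fold lower, with -1.10 in another probe set. It was the only member past 2-fold of 23 measured immediate early genes, whose median was -0.13. Fos was at 200.1 in control, 133 with losartan, 227 in dTGR and 1059.7 in terminal heart failure, so that probe set lay under control without reaching 2-fold. Its other probe sets gave -1.49 (72.9 in control and 20.1 with losartan) and -0.26 (31.1 and 8.04), both under the floor with losartan.

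Some large differences rested on 1 of several probe sets. Gstk1, a mitochondrial and peroxisomal glutathione transferase, had the largest difference among named genes that exceeded the floor on both sides, at 822 in control, 40.2 with losartan, 490.4 in dTGR and 134 in terminal heart failure, 20.4-fold lower, but its other probe set gave -0.14 on the log2 scale. Nr3c1, the glucocorticoid receptor, was at 153 in control and 37.1 with losartan, 4.13-fold lower. Another probe set gave -0.01, a value set by the floor, since it read 26.1 in control and 14.0 with losartan. The transporter Abcd3, which the naming rule left out, was at 225 in control and 1837 with losartan, 8.15-fold higher, while another probe set gave -1.10. Ccnd2, cyclin D2, was 2.67-fold higher with another probe set at -1.44, and Lipe, hormone-sensitive lipase, was 2.95-fold higher with another at -1.58. Abcd3 was chosen for mention after its values were seen.

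Over all called genes with another measured probe set, the direction held more often among the lower genes. Of 38 such lower genes, 31 had every other probe set below control, and 12 had another past 2-fold. Of 16 such higher genes, 7 had every other probe set above control, and 2 had another past 2-fold. This difference in share was not tested.

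Of the remaining largest lower genes, Med25, a Mediator subunit, was at 365 on the SD control array, 35.9 with losartan, 201 in dTGR and 235 in terminal heart failure, 10.2-fold lower. Apbb1, an adaptor that binds the amyloid precursor protein, was at 184, 30.1, 147 and 167, 6.13-fold lower, with -1.90 in another probe set. Emp1, an epithelial membrane protein, was at 241, 44.4, 242 and 145, 5.41-fold lower. In each of the 3, losartan was the lowest array by at least 2-fold. Crmp1, Maz and Alkbh2 were 3.89-fold to 3.94-fold lower. Orai1, the pore of the store-operated calcium channel, had a bound of at least 4.15-fold, as had Esr2, an oestrogen receptor. Ctla4, Syt5 and Celf2 had bounds of at least 4.10-fold, 3.57-fold and 3.52-fold.

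The genes of the renin-angiotensin and natriuretic systems other than Nppa were mostly dim and near control. Of 16 measured members, Nppa was the 1 higher and Bdkrb1 the 1 lower, with a median of -0.01. Rat Agt, angiotensinogen, was at 39.1 on the SD control array and 25.1, under the floor, with losartan, against 37.7 in dTGR and 39.6 in terminal heart failure. Ace, angiotensin converting enzyme, was at 86.1 in control, 95.2 with losartan, 128 in dTGR and 334 in terminal heart failure. Agtr1a, the type 1 receptor that losartan blocks, was at 45.0 in control, 26.0, barely above the floor, with losartan, and under the floor in dTGR (15.1) and terminal heart failure (24.1). Its 3 other probe sets were under the floor on both arrays compared. None of Agt, Ace and Agtr1a reached 2-fold. Bdkrb1, the inducible bradykinin receptor, was at 101, 28.1, 82.3 and 68.2, 3.60-fold lower with losartan, with -1.18 in another probe set. Npr1, the receptor for atrial and brain natriuretic peptide, was level over the 4 arrays, from 225 to 234.

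In the list of other vasoactive peptides, 1 of 14 measured members was higher (Penk) and 2 were lower, with a median of 0.06. Edn3, endothelin 3, was at 64.5 in control and under the floor with losartan, at least 2.48-fold lower. Npy, the neuropeptide of sympathetic nerves, was at 110.1 on the SD control array, 53.5 with losartan, 85.8 in dTGR and 135 in terminal heart failure, 2.06-fold lower. Edn1, endothelin 1, was under the floor on both arrays compared.

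Metabolic lists stayed near the all-gene median, with at most 3 members past 2-fold in each. Of 26 glycolytic and glucose uptake genes, 3 were lower, a larger share than the 4.80% of all genes, and 0 higher, with a median of -0.07. Aldoa, the muscle aldolase, was at 3639 in control, 1327 with losartan, 2325 in dTGR and 2955 in terminal heart failure, 2.74-fold lower. Hk1, a hexokinase, was at 1053, 454, 955 and 778, 2.32-fold lower, with -0.97 in another probe set. Pfkl, a phosphofructokinase, was 2.02-fold lower. Losartan was the lowest of the 4 arrays for each of these enzymes.

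Among 33 fatty acid genes, Acadsb, a short branched-chain acyl-CoA dehydrogenase, and Ucp3, an uncoupling protein, were lower (2.47-fold and 2.21-fold), none was higher, and the median was 0.13. Of 7 measured genes of the fasting response, Bdh1, which interconverts ketone bodies, was at 137 in control and 294 with losartan, 2.15-fold higher. Pdk4, the kinase that shuts off pyruvate dehydrogenase in fasting, was at 117 in control, 29.1 with losartan, 80.6 in dTGR and 447 in terminal heart failure, 4.01-fold lower. The median of that list was 0.14. None of 19 tricarboxylic acid cycle genes passed 2-fold (median 0.03, and -0.01 after quantile normalization).

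The clock list was the gene list farthest from 0. All 8 of its measured members were lower with losartan than in control, with a median of -0.57, and of -0.46 after quantile normalization, but only 1 passed 2-fold. Dbp, a transcription factor whose level swings strongly over the day, was at 213 on the SD control array, 65.3 with losartan, 189.8 in dTGR and 76.3 in terminal heart failure, 3.27-fold lower, and its other probe set gave -1.98. Nr1d2, a clock repressor, was at 134, 73.6, 108 and 79.9, and Tef, a relative of Dbp, at 156, 99.7, 142 and 75.1. Bmal1, the activator of the clock, was at 148 in control, 98.8 with losartan, 58.0 in dTGR and 178 in terminal heart failure, with 0.08 in another probe set. The hour at which hearts were taken is not stated in the labels or files used here. In terminal heart failure minus dTGR, a pair that crosses the chip lots with neither array compared here, the clock list median was 0.46. That is the opposite sign, although Dbp was lower there too (-1.31). In terminal heart failure minus SD control, which also crosses the lots, Dbp (-1.48), Tef (-1.05) and Nr1d2 (-0.74) were lower and Bmal1 (0.27) higher. The summed intensity of the list was 1513 in control, 1035 with losartan, 965 in dTGR and 1093 in terminal heart failure.

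**Figure D4:**
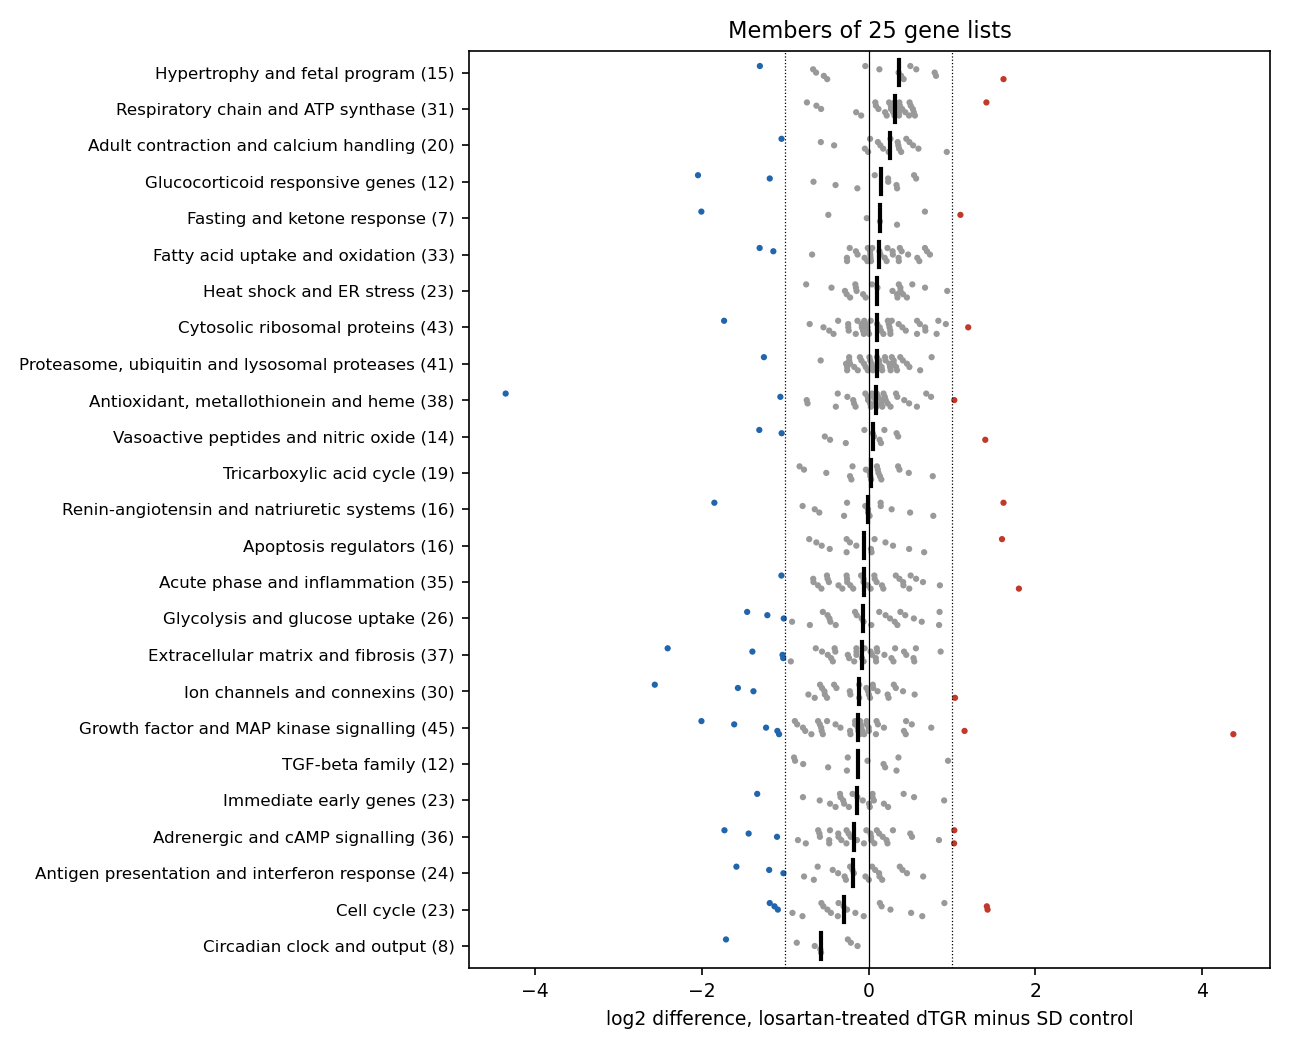
Log2 difference (x), losartan minus SD control, of the measured members of 25 gene lists (rows, number of measured members in brackets), with a bar at each list's median, dotted lines at 2-fold, red for genes at least 2-fold higher and blue for lower. List medians lie from -0.57 for the clock list to 0.36 for the hypertrophy list, and every list has most members inside 2-fold.

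In the antigen presentation and interferon list, 3 of 24 measured members were lower and none was higher, with a median of -0.18. RT1-Ba, a class II antigen-presenting chain, was at 502 in control, 219.7 with losartan, 529.9 in dTGR and 235 in terminal heart failure, 2.28-fold lower, but its 2 other probe sets gave -0.90 and 0.15. Mx2, an interferon-induced antiviral protein, was at 143, 70.6, 78.2 and 32.7, 2.03-fold lower. RT1-N3, a class I gene, was at 78.0 in control and under the floor on the other 3 arrays, a bound of -1.58 for the log2 difference with losartan. Class I and class II genes of the rat lie in families of near-identical copies, so their probe sets may read more than 1 gene. The interferon-stimulated response element GAAANNGAAA, on either strand, occurs in 8 of the 22 list members with a promoter window, against 3.41% of all 33469 windows. RT1-N3 holds 1 match and RT1-Ba none. The list was picked for its link to antigen presentation and interferon, so its share of matches does not bear on the losartan and control arrays.

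Stress and turnover lists each held a small number of called genes. In short lists such numbers can exceed the all-gene share. The lower genes of the glucocorticoid and cell cycle lists did so (4.80% over all genes). In heat shock and endoplasmic reticulum stress, 0 of 23 measured members passed 2-fold (median 0.11, and -0.01 after quantile normalization). The probe sets of Hspb1 disagreed: that standing for the gene gave -0.75, and its 3 others ran from -1.19 to 0.88. Of 38 antioxidant, metallothionein and heme genes, Mt3 was higher, Gstk1 and Alas2 were lower, and the median was 0.09. Of 12 glucocorticoid responsive genes, Nr3c1 and Cdkn1a were lower, with a median of 0.15. Cdkn1a, a cell cycle inhibitor, was at 90.6 in control, 39.8 with losartan, 18.1 in dTGR and 179 in terminal heart failure.

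Of 43 cytosolic ribosomal genes, Rpl5 was higher and Rpl19l4 lower (median 0.10), each with 1 side under the floor. Of 41 proteasome, ubiquitin and lysosomal genes, only Cast, the calpain inhibitor calpastatin, passed 2-fold, at 79.1 in control and 33.1 with losartan (median 0.10). In the cell cycle list, 2 of 23 measured members were higher (Ccnd2 and Foxm1) and 3 lower, with a median of -0.30. Ccng1, cyclin G1, was at 3277 in control, 1499.5 with losartan, 3579.9 in dTGR and 3925 in terminal heart failure, 2.19-fold lower, and Cdk5 was under the floor with losartan. Of 16 apoptosis regulators only Hrk passed 2-fold, from 9.07 under the floor in control to 78.9 with losartan (median -0.06, and 0.03 after quantile normalization).

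Markers of cell types were read in the same way, and in bulk tissue fewer cells of a type and less RNA per cell cannot be told apart. The label of heart muscle was checked on the cardiomyocyte markers, of which 9 of 10 were above the floor, with a summed intensity of 86877 in control and 115638 with losartan, a median of 0.36, and of 0.04 after quantile normalization. The smooth muscle and pericyte list had 9 of 10 members below control, a median of -0.51, and of -0.40 after quantile normalization. Its summed intensity was 8346 in control, 6656 with losartan, 10261 in dTGR and 9055 in terminal heart failure. Only Tpm2 passed 2-fold, Acta2 was at 1197 and 825, and Myl9 went the other way (772 and 1353), though another probe set of Myl9 gave -0.30. The part of vessel content in the lower vascular genes, such as Gja4, was not tested.

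Of 9 measured T cell markers, 8 were below control, with a median of -0.46, and of -0.44 after quantile normalization. The summed intensity of the list was 598 in control, 389 with losartan, 459 in dTGR and 321 in terminal heart failure. These genes were dim, with Cd3d at 31.0 in control and 12.1, under the floor, with losartan, and only Cd8b passed 2-fold (71.0 and 29.1). Macrophage markers had 0 of 6 measured members past 2-fold and a median of 0.15. Their summed intensity was 3063 in control, 3596 with losartan, 3719.9 in dTGR and 5213 in terminal heart failure. Cd74 was a large part of the first 2 sums, at 1533 in control and 1988 with losartan. Its 3 other probe sets lay below control, at -1.38 to -0.31 on the log2 scale. Both B cell markers on the array were under the floor in both samples.

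Fibroblast markers had 0 of 10 past 2-fold, a median of 0.07 that was -0.07 after quantile normalization, and nearly equal summed intensities (20055 in control and 20093 with losartan). Of 7 measured endothelial markers, Kdr was higher and Flt1 and Cav1 lower, with a median of 0.09. Cav1, the coat protein of caveolae, was at 895 in control, 400.4 with losartan, 506 in dTGR and 226 in terminal heart failure. Of the atrial markers other than Nppa, Myl7 was at 103 in control and 65.0 with losartan, and Myl4 was under the floor in both. The median over the 6 measured atrial markers was -0.03.

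Neuron and Schwann cell markers had a median of -0.34 over 9 members, with Th and Npy lower. Th, the first enzyme of catecholamine synthesis, was at 68.2 in control and 16.0, under the floor, with losartan, against 42.2 in dTGR and 65.8 in terminal heart failure. Among 4 erythroid markers, Alas2, the first enzyme of heme synthesis in red cells, was at 526 in control and 253 with losartan, while the globins Hbb and Hbb-b1 stood 1.24-fold and 1.26-fold above control (list median -0.33). Adipocyte markers had a median of 0.27 over 8 members and skeletal muscle markers 0.10 over 10. In the adipocyte list only Lipe passed 2-fold, and in the skeletal muscle list only Chrna1, which was lower. Mast cell markers had 4 members above the floor and a median of -0.19, and of the neutrophil markers only S100a9 was above the floor, at 27.1 in control and 20.1 with losartan.

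A count of genes that stood at least 2-fold from each of the other 3 arrays was made for each array, with the protocol of dTGR and the run day of terminal heart failure each their own. Of 3806 genes above the floor on any array, the SD control array stood alone in 9 genes above and 13 below the others. The losartan array stood alone in 16 genes above and 40 below the others, with Gja1, Timp3, Cited2, Akt2, Pdk4 and Orai1 among the 40. The dTGR array stood alone in 122 and 47 and the terminal array in 103 and 65, and group and array run cannot be told apart in these counts. The 13 genes for which control was lowest by 2-fold, on the probe set that stands for each gene, were Nppa, Penk, Cebpb, Pitx3, Usp19, Akip1, Pkp4, Lipe, Begain, Kctd13, Cdo1, Ccnd2 and Glmn. Another probe set lay below control with losartan for Lipe, Ccnd2 and Begain (-1.58, -1.44 and -1.03), and those of Kctd13 gave -0.12 and 0.30. This choice used the same values, and it is a description.

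Terminal heart failure against dTGR crosses the same 2 chip lots in the same direction. Of the other pairs that cross them, it alone shares no array with the losartan and control pair. It is no like-for-like comparison of chip lots, since its arrays also differ in fluidics protocol, run day and operator, which the losartan and control arrays shared. In that pair, 277 of 3602 genes were at least 2-fold higher (7.69%) and 426 lower (11.8%). Of the 76 genes higher with losartan, 15 were also higher there (19.7% of the 76 and 5.42% of the 277) and 7 were lower. Of the 163 genes lower with losartan, 27 were also lower there (16.6% of the 163 and 6.34% of the 426) and 18 were higher. Over 3195 genes the log2 differences of the 2 pairs had a Pearson correlation of 0.04 and a Spearman correlation of 0.03, as a description over genes, which are not independent. Map3k12 and Plpp2 were higher in both pairs, and Prkaca, Gja4, Dbp and Pde3a were lower in both. Gja1 and Timp3 did not pass 2-fold in the second pair (-0.18 and 0.54), and Nppa and Penk went the other way there (-0.91 and -0.54).

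**Figure D5:**
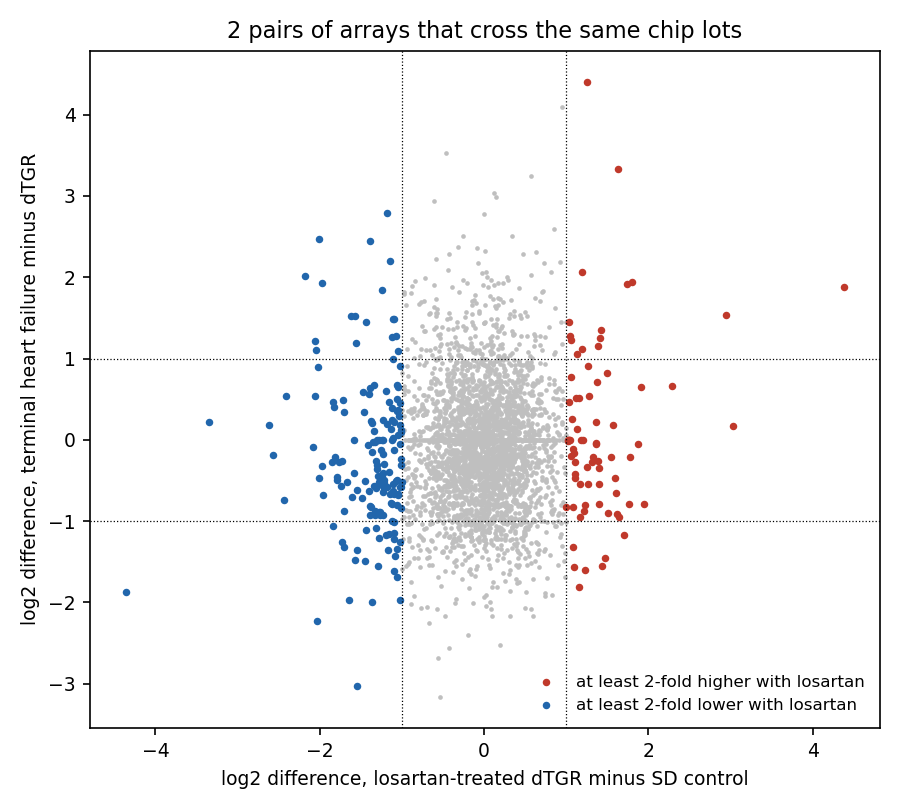
Log2 difference of each gene in losartan-treated dTGR minus SD control (x) and in terminal heart failure minus dTGR (y), 2 pairs of arrays that cross the same chip lots and share no array, with dotted lines at 2-fold and called genes in red (76) and blue (163). Red and blue points spread over both sides of 0 on the y axis, and over 3195 genes the Pearson correlation is 0.04.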

How the data were processed

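Total RNA of rat left ventricle was hybridised to 4 Affymetrix rat genome arrays, 1 for each of 4 groups. The values are linear intensities, deposited by the authors as a single number for every probe set; the software behind them and the detection calls are not stated in the labels or files used here. The arrays' trimmed means already lay within 199 to 200 units. Of 7778 low intensities on both arrays (1 to under 32), 6942 have a 0 as first decimal followed by a digit from 1 to 9, a form that 0 of 9642 brighter values have. A spreadsheet may have turned these into day and month, in which case values under 32 are off by less than 1 unit and folds that rest on them (such as those of Timp3, Akt2 and Pdk4) are approximate.

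The 4 arrays were brought to their common trimmed mean (2% trimmed at each end), values were held at the 40th percentile of all pooled intensities (26.0), and log2 differences were taken (Python 3.11.15, numpy 2.4.6, pandas 2.3.3, limma 3.58.1 for quantile and loess settings). Of 8799 probe sets, 59 controls, 1426 without a symbol and 308 with several were left out; the other 7006 covered 4736 genes, and 6985 matched the rat gene table. Where a gene had several probe sets, that of the highest mean over the arrays stood for it. A gene was measured where at least 1 array was above the floor, and called at 2-fold. No test was possible with 1 array per group, and p-values were not computed. The script was tested on simulated data.

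The text names the 15 largest called genes above the floor on both arrays in each direction without a probe set of opposite sign (predicted genes left out), the 5 largest bounds in each direction, up to 4 members of each of 25 gene lists and 14 marker lists, and 16 genes always; other genes are named as called members of a list or for standing apart on 1 array. The arrays compared, the lists and the rule were chosen with earlier results of these data known. Chip lot, run day, operator and fluidics protocol come from the instrument files deposited by the authors. Promoter letters are from RefSeq (GRCr8). The alternatives were other floors, scalings, probe set choices, filters and folds.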

Additional observations from a re-analysis of the deposited data

How the results depend on the processing

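The counts of called genes depended on the floor more than on the scaling. With the floor at the 25th percentile 225 genes were higher and 307 lower, at the 60th 27 and 60, with no floor 514 and 505, and with a pseudocount of 32 in place of the floor 43 and 80. Asking for both sides above the floor gave 47 and 115, and 3-fold gave 17 and 37. Under the other settings (deposited values, equal medians, quantile normalization, cyclic loess, the median over probe sets, plain probe sets, low values read in 2 other ways) counts were 65 to 97 higher and 139 to 175 lower. Of 83 called genes named, 32 passed 2-fold under every alternative that gave them a value. Not all of them had a value under each setting: Edn3 had 10, and Tpm2 and Rpl5 had 11, against 13 for Nppa. The direction turned for RT1-Ba (0.15 with plain probe sets), Ccnd2 (-0.0094) and Lipe (-0.0093, both with the median over probe sets), which follows from their discordant probe sets. Reading low values as 1 decimal was added after seeing the data. The medians of the tricarboxylic acid cycle, heat shock, apoptosis and fibroblast lists changed sign after quantile normalization. No replicate could be left out, and no paired analysis was possible because each group has 1 array. The number of arrays and the low signal of most called genes limit the precision: the lower genes had a median of 35.6 with losartan, near the floor.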
